A study of Homo sapiens with 9 samples.

Results

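The genes described here are 42 genes of the G2 phase and of mitosis, the part of the cell cycle in which a cell sets up the spindle, separates its chromosomes and divides. They were picked by name as a list of known mitotic genes. All 42 were among the 16630 genes of the expression table, and all 42 lay above the filter on low values. Their mean levels over the 9 libraries ran from 7.44 FPKM (fragments scaled by transcript length and by the mapped fragments of the library) for CDC25C to 124.4 FPKM for UBE2C.

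RNA was measured in H1650, an established human line of non-small cell lung cancer, in 3 groups of 3 libraries that the submitters call biological replicates. The siMENA11a group was transfected with a mix of 3 siRNAs directed at exon 11a of ENAH, the exon found only in the epithelial form of the protein, hMENA11a. The siMENA group received a purchased pool of siRNAs against all forms of ENAH, and the control group a pool with no intended human target. Every group, control included, was transfected with lipid at 20 nM siRNA and labelled day 3. ENAH encodes an actin regulator of the Ena/VASP family. It measured 9.98, 11.02 and 10.3 FPKM in the siMENA11a libraries, 4.43, 5.79 and 5.57 FPKM in siMENA and 26.1, 30.04 and 26.1 FPKM in control, with no overlap between groups and an exact two-sided permutation p of 0.1 for each pair, the smallest that 3 against 3 allow. The system is 1 cell line with a partial and transient loss of ENAH RNA, and no source used here gives the siRNA sequences. All 8 epithelial markers examined were expressed, from 40.3 FPKM for ESRP1 to 1446 FPKM for KRT8. The markers of fibroblasts, leukocytes and endothelium that could be examined (4, 3 and 3 genes) had means below 1 FPKM, except CD14 at 4.12 and CD68 at 11.9 FPKM, and the other 7 genes of these lists were not analysed here.

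Mitotic genes are switched on together in late S and G2 phase by the MuvB complex with B-MYB and FOXM1, and are held down in resting cells by the DREAM complex, which also contains MuvB. Cyclins A and B with CDK1 then start mitosis, aurora and polo-like kinases and kinesin motors build the spindle, and the spindle checkpoint holds back the anaphase-promoting complex (APC/C) until every chromosome is attached. The APC/C with CDC20 then marks securin and cyclin B for destruction, after which the cell divides.

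Under siMENA11a every one of the 42 genes had a lower mean than in control, and 25 passed the test as lower (limma on log2(FPKM + 1), Benjamini-Hochberg adjusted p under 0.05), against 11.3% of all 13273 genes tested. None was called higher by limma, against 8.16% of all genes. At an unadjusted p under 0.05, 36 were lower and 0 higher. No share of all genes is given at that level, here or below, so such counts have no baseline. With the replicate number as a block in the fit, 37 of 42 passed as lower. The block also raised the calls over all genes in either direction, from 2583 to 3431. The median fold change of the 42 genes was -0.44 on the log2(FPKM + 1) scale, on which all fold changes below are given, against -0.01 for all genes tested. In 26 of the 42 genes every siMENA11a library lay below every control library, which held for 20.2% of all genes. The 42 genes rise and fall together from library to library, as described next, so these counts do not come from 42 independent measurements. In RNA from a whole culture, fewer cells in G2 and M and less mitotic RNA per cell cannot be told apart.

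Under siMENA fewer mitotic genes were called than under siMENA11a, and the count depended on the fit. In the fit with group as the only term 5 of 42 passed as lower against control, TOP2A, NEK2, CDCA3, PTTG1 and ANLN. This is near the 8.24% of all genes called lower in that fit. None was called higher by limma, against 10.3% of all genes, and at an unadjusted p under 0.05 the counts were 12 lower and 0 higher. The median was -0.13, against 0.04 for all genes, with 31 genes below and 11 above control. In 10 genes every siMENA library lay below every control library, against 16.3% of all genes. With the replicate number as a block in the fit, 15 of 42 passed as lower in this comparison, against 10.6% of all genes. The 10 that the block added to those 5 were BIRC5, AURKA, KIF14, CCNA2, KIF20A, NUF2, KIF11, CDK1, CEP55 and CENPF, with blocked adjusted p from 0.000651 for BIRC5 to 0.0477 for CENPF. Without the block BIRC5, KIF14, KIF11 and AURKA also passed in some omissions of 1 library (lowest adjusted p 0.0257, 0.0308, 0.0436 and 0.0439).

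The direct comparison of siMENA11a against siMENA called 18 of 42 genes lower, against 22.2% of all genes, and 1 higher, TOP2A, against 14.4%. The median was -0.30, against -0.05 for all genes. Every siMENA11a library lay below every siMENA library in 16 genes, against 28.6% of all genes. Of the 25 genes called lower against control, 17 were also called lower against siMENA. These comparisons share the siMENA11a libraries. Of the 5 genes called lower under siMENA, 3 (TOP2A, NEK2 and CDCA3) were also called lower under siMENA11a, and both of these comparisons share the control libraries.

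**Figure D1:**
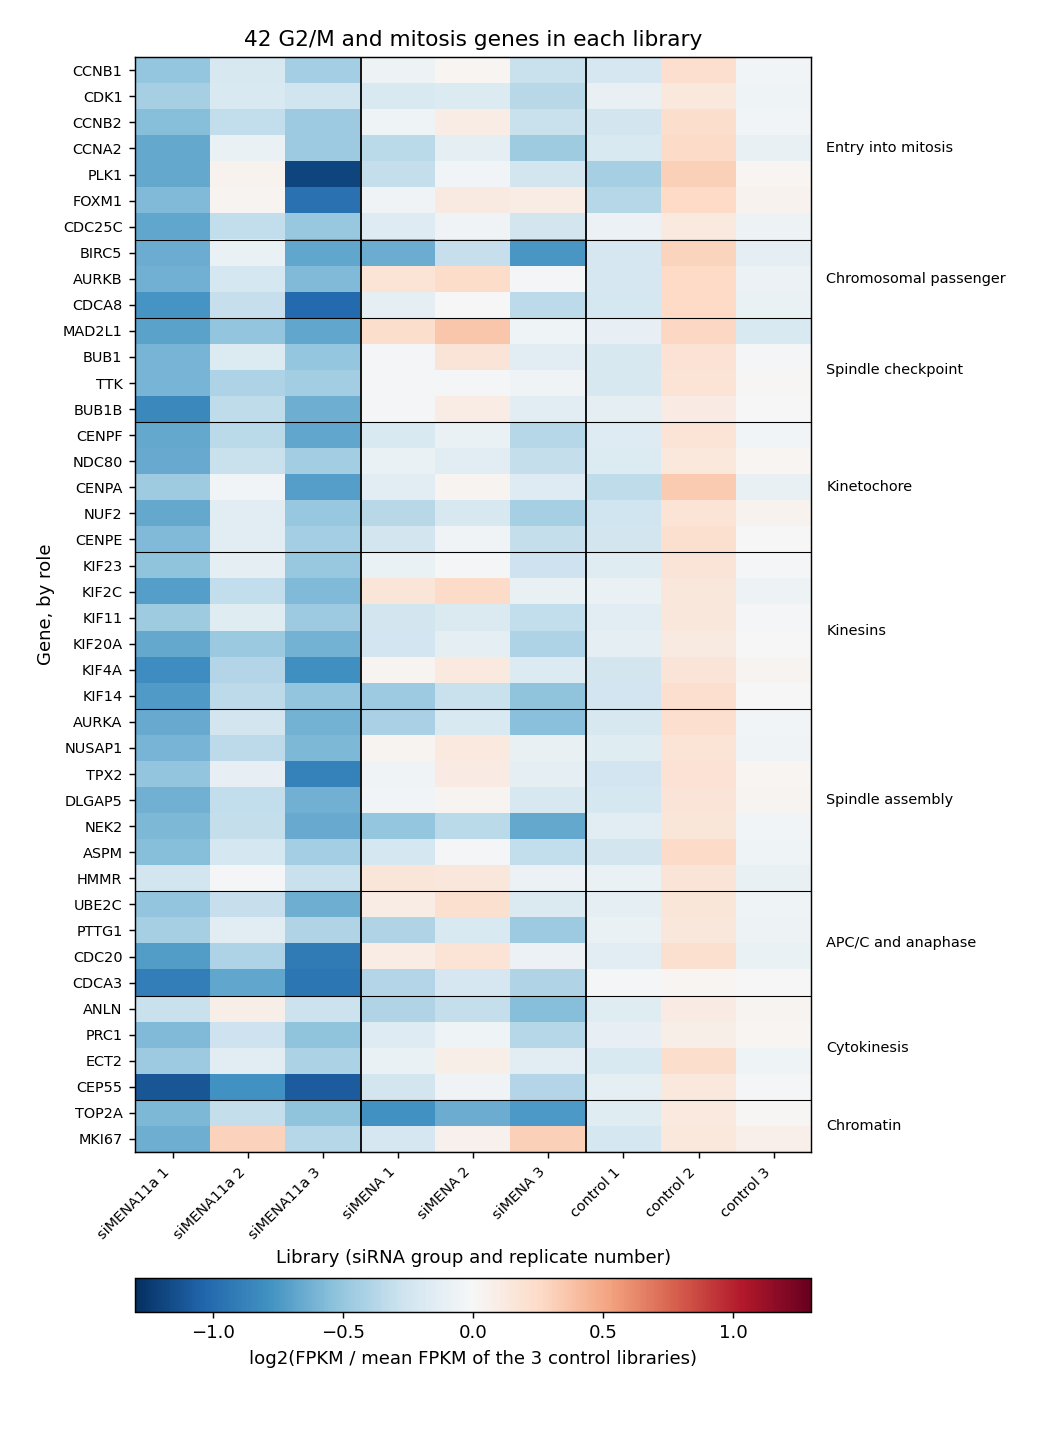
Level of each of the 42 genes (rows, grouped by role) in each of the 9 libraries (columns), as log2 of its FPKM over the mean of the 3 control libraries, with blue below and red above that mean. The siMENA11a columns are blue for nearly all genes, with replicate 2 the palest, and the column of control replicate 2 is red in nearly all rows.

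The libraries numbered 2 stood apart in these genes. In siMENA11a and in control, replicate 2 held the highest value of its group for all 42 genes, and in siMENA for 39 of 42. The mean log2(FPKM + 1) of the 42 genes was 4.43, 4.79 and 4.44 in siMENA11a replicates 1 to 3, 4.86, 4.98 and 4.75 in siMENA and 4.84, 5.19 and 4.99 in control. The group means were 4.55 ± 0.20, 4.86 ± 0.12 and 5.01 ± 0.18 in siMENA11a, siMENA and control (SD, n = 3 each). Relative to the mean of the control libraries, the median gene stood at 65.3%, 84.1% and 68.5% in siMENA11a and at 89.8%, 98.4% and 81.8% in siMENA. It stood at 87.9%, 112.9% and 97.9% in the control libraries themselves.

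**Figure D2:**
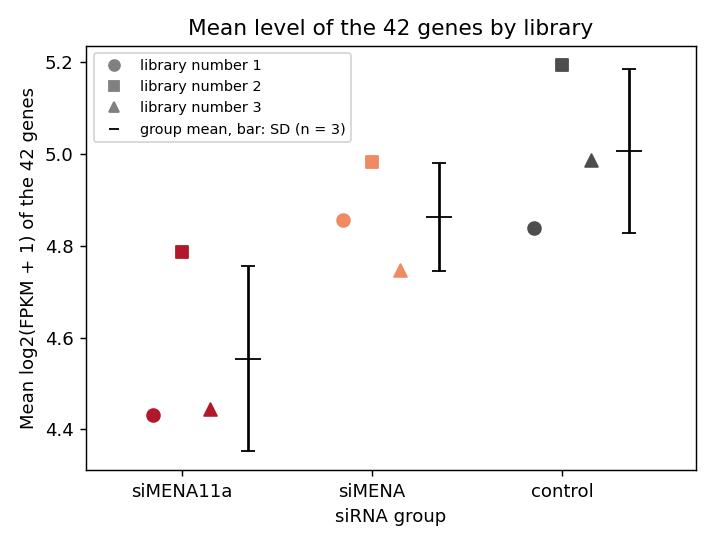
Mean log2(FPKM + 1) of the 42 genes in each library (vertical axis) by siRNA group, with the symbol showing the library number and the bar the group mean and SD (n = 3). Number 2 is the highest library in each group, and siMENA11a replicate 2 at 4.79 lies close to control replicate 1 at 4.84.

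Because of this, the counts were repeated without those libraries. Without all 3 libraries numbered 2, a setting chosen after the values were seen, 33 genes were lower in siMENA11a against control (7.03% of all genes), 7 in siMENA against control (6.11% of all genes) and 28 in siMENA11a against siMENA (18.3% of all genes). Single libraries moved the counts by over 1.5 times. For siMENA11a against control the count was 15 without siMENA11a replicate 1, 39 without siMENA11a replicate 2, 16 without control replicate 2 and 16 without control replicate 3. Over all genes the calls in either direction were then 1765, 2390, 1748 and 1493, against 2583 with every library. For siMENA against control the count of the 42 genes was 2 without any one of siMENA replicates 1 and 3 and control replicates 2 and 3, and 9 without siMENA11a replicate 2. Over all genes the calls in that order were 1346, 2020, 1851, 1446 and 2902, against 2463 with every library. The median of siMENA against control was -0.08 when siMENA replicate 3 was omitted, -0.22 and -0.02 when control replicates 1 and 2 were omitted in turn, and -0.08 when all 3 libraries numbered 2 were omitted. For siMENA11a against siMENA the count was 11 without siMENA11a replicate 1 or siMENA replicate 2 and 28 without siMENA11a replicate 2. Over all genes the calls in that order were 3871, 3787 and 4814, against 4857 with every library. No gene was called higher in siMENA11a against siMENA without any one of siMENA11a replicates 2 and 3, siMENA replicates 1 to 3 and control replicate 3.

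The promoters of these genes were examined for the elements through which they are known to be controlled. The CHR (cell cycle genes homology region) is the element that MuvB binds, and the CCAAT box is bound by NF-Y, a general activator common in mitotic promoters. RefSeq promoters of build GRCh38.p14, from 250 bases before to 50 bases after the start site, were given for 36 of the 42 genes. AURKA, BIRC5, FOXM1, TPX2, TTK and UBE2C had no entry. A CHR, searched as TTTGAA or TTTAAA on both strands, was present in 86.1% of the 36 promoters, against 15.4% of 9219 promoters of tested genes and 24.3% of all 27305 promoters. A CCAAT box, searched as CCAAT on both strands, was present in 80.6%, against 36.7% and 35.7%, and both elements in 69.4%, against 6.32% and 9.49%. The 52 CHR matches had a median position of -32 and the 61 CCAAT matches one of -73, counted in bases from the start site. A match is a sequence and not a site shown to be bound. The median fold change under siMENA11a was -0.46 in the 25 genes with both elements (16 called lower) and -0.43 in the other 11 (6 called lower).

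**Figure D3:**
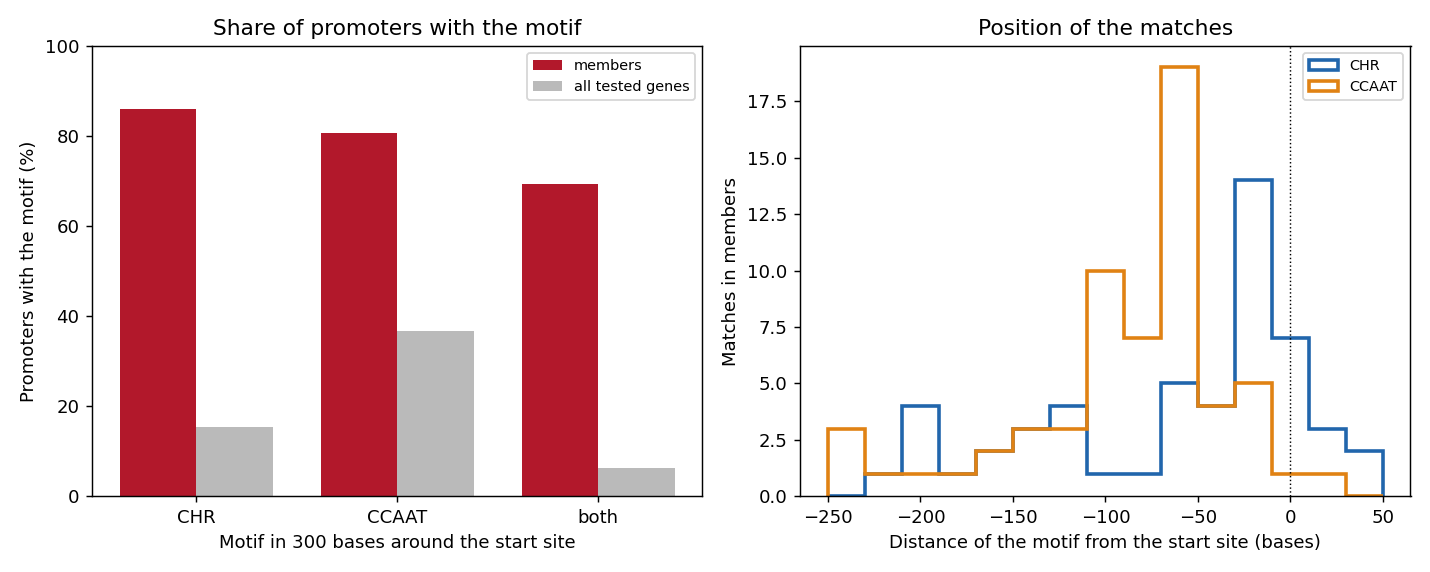
Left, the share of promoters (vertical axis, %) that hold a CHR, a CCAAT box or both, for the 36 members with a promoter sequence and for all tested genes. Right, the number of matches in the members by distance from the start site in bases, with CHR matches mostly just upstream of the start and CCAAT matches farther upstream, around a median of -73.

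The 250 bases upstream of the start site are shown for the 3 genes that fell most under siMENA11a among the called genes with both elements there, with CHR and CCAAT matches on either strand in capitals. They lie at chr10:93496362-93496611 (plus strand) for CEP55, chr1:43358731-43358980 (plus strand) for CDC20 and chr1:37692266-37692515 (plus strand) for CDCA8 in GRCh38.p14. In CDCA8 the CHR shares 1 base with a CCAAT match on the other strand.
CEP55: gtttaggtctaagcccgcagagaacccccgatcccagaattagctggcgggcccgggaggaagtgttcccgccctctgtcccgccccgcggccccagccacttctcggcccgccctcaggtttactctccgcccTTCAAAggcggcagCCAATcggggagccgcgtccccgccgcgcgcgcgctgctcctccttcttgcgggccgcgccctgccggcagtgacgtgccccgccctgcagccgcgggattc
CDC20: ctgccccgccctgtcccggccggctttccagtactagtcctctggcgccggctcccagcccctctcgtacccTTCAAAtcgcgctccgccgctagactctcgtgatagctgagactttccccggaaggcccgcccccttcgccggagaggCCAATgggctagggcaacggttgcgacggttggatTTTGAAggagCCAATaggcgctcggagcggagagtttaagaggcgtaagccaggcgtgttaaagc
CDCA8: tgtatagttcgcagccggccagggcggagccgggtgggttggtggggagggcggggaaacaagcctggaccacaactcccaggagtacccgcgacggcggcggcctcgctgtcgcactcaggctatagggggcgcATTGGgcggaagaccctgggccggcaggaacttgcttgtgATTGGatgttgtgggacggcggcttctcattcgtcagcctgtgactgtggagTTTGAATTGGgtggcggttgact

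For the next 5 genes by size of fall among those called lower that also hold both elements upstream, the 30 bases around a CHR are shown with the CHR in capitals. The windows lie at chrX:70290058-70290087 (plus strand), chr5:138179059-138179088 (plus strand), chr1:214603068-214603097 (plus strand), chr15:41332829-41332858 (plus strand) and chr14:55191677-55191706 (minus strand) in the same build. Each holds one of the spellings searched or its complement, and the flanking bases differ.
KIF4A: ctccgggacggaTTTGAAacttggcggtta
KIF20A: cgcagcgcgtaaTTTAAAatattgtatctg
CENPF: agagggcttgttTTTAAAatccatccgaaa
NUSAP1: cggcattcttcaTTTAAActgtctataaat
DLGAP5: cctttcaatcaaTTCAAAtatcgcacggag

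**Figure D4:**
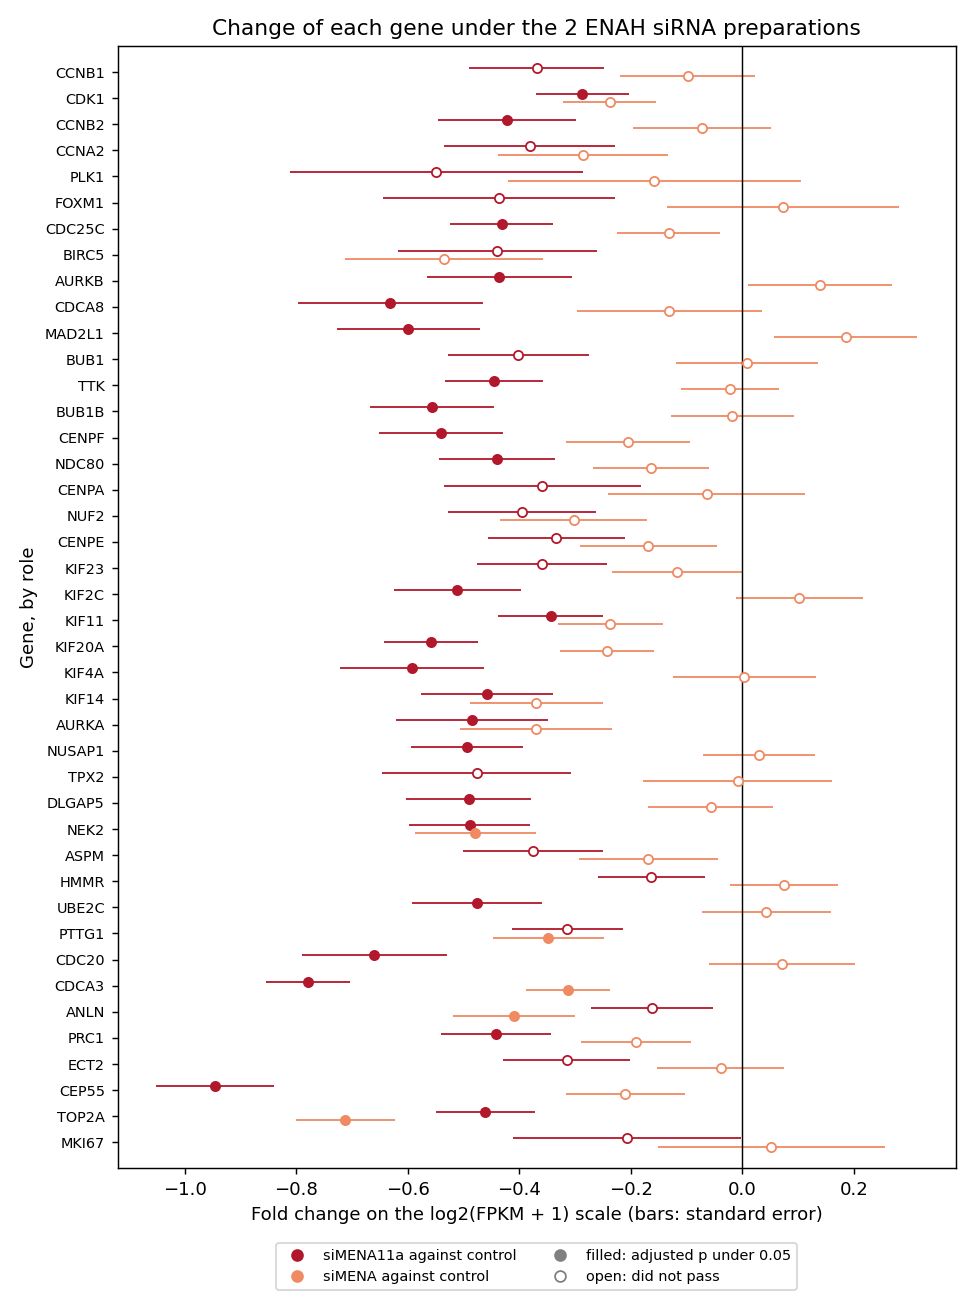
Fold change of each gene on the log2(FPKM + 1) scale (horizontal axis, bars are standard errors) under siMENA11a and under siMENA, both against the same control libraries. Filled points passed at adjusted p under 0.05 in the fit with group as the only term: 25 for siMENA11a, all left of 0, and 5 for siMENA. With the replicate block 37 and 15 passed as lower.

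Of the 7 genes that carry a cell into mitosis, 3 fell under siMENA11a and none under siMENA in the fit with group as the only term. Under siMENA 1 was lower at an unadjusted p under 0.05, and CDK1 and CCNA2 passed with the replicate block. The medians under siMENA11a and siMENA were -0.42 and -0.13. The 3 genes that fell under siMENA11a are the kinase CDK1, its partner cyclin B2 (CCNB2) and the phosphatase CDC25C, which removes the inhibitory phosphates from CDK1. CDC25C measured 5.34, 6.85 and 6.07 FPKM in the siMENA11a libraries, 7.60, 8.26 and 7.23 FPKM in siMENA and 8.08, 9.34 and 8.18 FPKM in control. It fell by 0.43 (SE 0.09, adjusted p 0.0104) under siMENA11a against control, with no overlap, and fell by 0.30 (SE 0.09, adjusted p 0.028) against siMENA. CCNB2 measured 28.3, 33.3 and 29.8 FPKM in the siMENA11a libraries, 39.8, 44.2 and 33.8 FPKM in siMENA and 35.2, 48.7 and 40.4 FPKM in control. The siMENA11a values lay below both other groups, and CCNB2 fell by 0.42 (SE 0.12, adjusted p 0.0391) against control and fell by 0.35 (SE 0.12, adjusted p 0.0489) against siMENA. CDK1 measured 36.8, 43.4 and 41.6 FPKM in the siMENA11a libraries, 43.3, 43.98 and 38.7 FPKM in siMENA and 46.7, 54.7 and 47.9 FPKM in control. It fell by 0.29 (SE 0.08, adjusted p 0.0371) under siMENA11a. For siMENA its fold change was -0.24 (SE 0.08, adjusted p 0.0734, and 0.0314 with the replicate block), although every library of either siRNA group lay below every control library.

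CCNB1, the main mitotic cyclin and the most abundant of this group, did not pass in the fit with group as the only term. CCNB1 measured 68.8, 84.1 and 71.5 FPKM in the siMENA11a libraries, 92.95, 98.8 and 79.7 FPKM in siMENA and 83.4, 114 and 94.8 FPKM in control. Its siMENA11a and control values overlapped through siMENA11a replicate 2, with a fold change of -0.37 (SE 0.12, adjusted p 0.0585, and 0.00929 with the replicate block). It passed in 2 of 9 single-library omissions. CCNA2, the cyclin of S phase and early mitosis, PLK1, the polo-like kinase, and FOXM1, the transcription factor of G2 genes, also overlapped, with fold changes of -0.38, -0.55 and -0.44 and adjusted p of 0.111, 0.175 and 0.174. With the replicate block the adjusted p were 0.00484, 0.0535 and 0.0726, and each gene passed in 1 of 9 single-library omissions. PLK1 had the widest spread of them, at 20.6, 33.7 and 14.3 FPKM in siMENA11a, 26.4, 31.99 and 27.6 FPKM in siMENA and 24.3, 40.5 and 33.3 FPKM in control. FOXM1 in siMENA was 0.07 (SE 0.21, adjusted p 0.838) against control. Some calls depended on single libraries, and the range of adjusted p given with each runs over all settings tried on repaired values. The call of CCNB2 under siMENA11a was lost without any one of siMENA11a replicates 1 and 3, siMENA replicate 1 and control replicates 2 and 3 (adjusted p 0.00639 to 0.118 over all settings), and that of CDK1 without any one of siMENA11a replicates 1 and 3, siMENA replicate 1 and control replicates 2 and 3 (adjusted p 0.0145 to 0.122 over all settings). Against siMENA, the call of CCNB2 was lost without any one of siMENA11a replicates 1 and 3, siMENA replicates 1 and 2 and control replicate 3 (adjusted p 0.00792 to 0.161 over all settings), and that of CDC25C without any one of siMENA11a replicates 1 and 3 and siMENA replicates 1 and 2 (adjusted p 0.00655 to 0.101 over all settings).

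The chromosomal passenger complex corrects wrong attachments of chromosomes to the spindle. Its kinase AURKB and its subunit borealin (CDCA8) fell under siMENA11a. Survivin (BIRC5) did not pass in any comparison of the fit with group as the only term. CDCA8 measured 11.1, 15.2 and 9.35 FPKM in the siMENA11a libraries, 17.3, 18.7 and 14.9 FPKM in siMENA and 16.1, 22.5 and 17.7 FPKM in control. CDCA8 fell by 0.63 (SE 0.17, adjusted p 0.0252) against control with no overlap and fell by 0.50 (SE 0.17, adjusted p 0.0385) against siMENA, whose replicate 3 overlapped with siMENA11a replicate 2. AURKB measured 11.9, 15.7 and 12.3 FPKM in the siMENA11a libraries, 20.8, 21.7 and 18.2 FPKM in siMENA and 15.8, 21.9 and 17.4 FPKM in control. AURKB fell by 0.44 (SE 0.13, adjusted p 0.0409) against control and fell by 0.57 (SE 0.13, adjusted p 0.0068) against siMENA, and every siMENA11a library was below every other library. BIRC5 measured 29.3, 42.98 and 28.7 FPKM in the siMENA11a libraries, 29.3, 37.1 and 27.1 FPKM in siMENA and 39.2, 55.8 and 42.1 FPKM in control. Its fold change was -0.44 (SE 0.18, adjusted p 0.114, and 0.00157 with the replicate block) under siMENA11a. Under siMENA it was -0.53 (SE 0.18, adjusted p 0.063, and 0.000651 with the replicate block), and in siMENA all libraries lay below control. In each of these comparisons BIRC5 passed in 1 of 9 single-library omissions. Against control, the call of CDCA8 was lost without any one of siMENA11a replicates 1 and 3 and control replicates 2 and 3 (adjusted p 0.00205 to 0.0831 over all settings), and that of AURKB without any one of siMENA11a replicates 1 and 3, siMENA replicates 1 and 2 and control replicates 2 and 3 (adjusted p 0.00484 to 0.129 over all settings). Against siMENA, the call of CDCA8 was lost without any one of siMENA11a replicates 1 and 3, siMENA replicates 1 and 2 and control replicate 3 (adjusted p 0.00282 to 0.129 over all settings).

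All 4 spindle checkpoint genes were lower under siMENA11a than under siMENA, and 3 of 4 fell against control. The checkpoint protein MAD2L1, which binds and restrains CDC20, showed the widest distance between the siRNA groups among the 42 genes. MAD2L1 measured 26.1, 29.7 and 26.5 FPKM in the siMENA11a libraries, 49.6, 54.3 and 40.7 FPKM in siMENA and 39.3, 50.9 and 36.9 FPKM in control. It was low in all siMENA11a libraries, and siMENA lay on the other side of control in its mean. MAD2L1 fell by 0.60 (SE 0.13, adjusted p 0.011) under siMENA11a against control and fell by 0.78 (SE 0.13, adjusted p 0.00127) against siMENA, whereas siMENA against control gave 0.19 (SE 0.13, adjusted p 0.347). BUB1B measured 9.41, 13.3 and 10.8 FPKM in the siMENA11a libraries, 16.6, 17.9 and 15.3 FPKM in siMENA and 15.5, 18.1 and 16.7 FPKM in control. BUB1B, the checkpoint protein BUBR1, fell by 0.56 (SE 0.11, adjusted p 0.00783) against control and fell by 0.54 (SE 0.11, adjusted p 0.00439) against siMENA, without overlap in either. TTK measured 10.98, 12.6 and 12.2 FPKM in the siMENA11a libraries, 16.3, 16.4 and 16.2 FPKM in siMENA and 14.4, 18.8 and 16.8 FPKM in control. This gene, which encodes the checkpoint kinase MPS1, fell by 0.45 (SE 0.09, adjusted p 0.00749) against control and fell by 0.42 (SE 0.09, adjusted p 0.00458) against siMENA. BUB1 measured 18.3, 24.7 and 19.7 FPKM in the siMENA11a libraries, 27.4, 31.4 and 25.3 FPKM in siMENA and 24.2, 31.8 and 27.7 FPKM in control. Against control, the kinase BUB1 overlapped through siMENA11a replicate 2, with -0.40 (SE 0.13, adjusted p 0.0512, and 0.00335 with the replicate block). It passed there in 2 of 9 single-library omissions. BUB1 fell by 0.41 (SE 0.13, adjusted p 0.029) against siMENA. Its call against siMENA was lost without any one of siMENA11a replicates 1 and 3 and siMENA replicates 1 and 2 (adjusted p 0.00146 to 0.104 over all settings).

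Kinetochores are the protein assemblies that join centromeres to microtubules. Of 5 such genes, CENPF, a large protein of the outer kinetochore, and NDC80, the microtubule-binding subunit of the NDC80 complex, fell under siMENA11a. None passed under siMENA in the fit with group as the only term (1 at an unadjusted p under 0.05). With the replicate block NUF2 and CENPF passed under siMENA. CENPF measured 24.6, 30.7 and 24.5 FPKM in the siMENA11a libraries, 34.1, 36.8 and 30.2 FPKM in siMENA and 34.8, 44.1 and 38.2 FPKM in control. It fell by 0.54 (SE 0.11, adjusted p 0.00916) against control and fell by 0.33 (SE 0.11, adjusted p 0.0391) against siMENA, where siMENA11a replicate 2 overlapped with siMENA. NDC80 measured 15.8, 20.4 and 18.2 FPKM in the siMENA11a libraries, 23.5, 22.6 and 20.1 FPKM in siMENA and 22.01, 27.4 and 25.4 FPKM in control. NDC80 fell by 0.44 (SE 0.10, adjusted p 0.0168) under siMENA11a against control and reached -0.28 (SE 0.10, adjusted p 0.063) against siMENA. NUF2, the partner of NDC80, CENPA, the histone that marks centromeres, and the motor CENPE had fold changes of -0.40, -0.36 and -0.33 under siMENA11a, with adjusted p of 0.0624, 0.186 and 0.0871. All 3 overlapped with control. With the replicate block the adjusted p of NUF2, CENPA and CENPE were 0.00814, 0.0331 and 0.01. They passed in 2, 1 and 2 of 9 single-library omissions. The call of NDC80 was lost without any one of siMENA11a replicate 1 and control replicates 2 and 3 (adjusted p 0.00801 to 0.0592 over all settings), and that of CENPF against siMENA without any one of siMENA11a replicates 1 and 3, siMENA replicates 1 and 2 and control replicate 3 (adjusted p 0.00352 to 0.128 over all settings).

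Among the kinesin motors 5 of 6 fell under siMENA11a and none under siMENA in the fit with group as the only term. Under siMENA 3 were lower at an unadjusted p under 0.05, and KIF14, KIF20A and KIF11 passed with the replicate block. KIF20A, which carries the passenger complex to the midzone, was lower than control in both siRNA groups without overlap. KIF20A measured 17.2, 19.5 and 17.8 FPKM in the siMENA11a libraries, 22.9, 25.1 and 20.6 FPKM in siMENA and 25.1, 29.5 and 27.1 FPKM in control. It fell by 0.56 (SE 0.08, adjusted p 0.00201) under siMENA11a against control and fell by 0.32 (SE 0.08, adjusted p 0.0151) against siMENA, and siMENA against control gave -0.24 (SE 0.08, adjusted p 0.0712, and 0.0192 with the replicate block). KIF4A measured 7.05, 9.48 and 7.14 FPKM in the siMENA11a libraries, 12.7, 13.6 and 10.9 FPKM in siMENA and 10.5, 13.9 and 12.7 FPKM in control. KIF4A, a motor of chromosome arms, fell by 0.59 (SE 0.13, adjusted p 0.0116) against control and fell by 0.60 (SE 0.13, adjusted p 0.00553) against siMENA. KIF2C measured 18.8, 24.7 and 20.8 FPKM in the siMENA11a libraries, 34.3, 36.7 and 28.8 FPKM in siMENA and 28.97, 34.1 and 29.4 FPKM in control. This depolymerase of centromeric microtubules fell by 0.51 (SE 0.11, adjusted p 0.0128) against control and fell by 0.61 (SE 0.11, adjusted p 0.00253) against siMENA. In both genes all siMENA11a libraries lay below all others.

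KIF11, the motor that pushes spindle poles apart, and KIF14, a motor of cytokinesis, fell by 0.34 (adjusted p 0.0303) and 0.46 (adjusted p 0.0243) under siMENA11a. In siMENA they also lay below control in every library, with fold changes of -0.24 and -0.37 and adjusted p of 0.108 and 0.057, which were 0.0261 and 0.008 with the replicate block. KIF23 measured 26.6, 35.2 and 27.2 FPKM in the siMENA11a libraries, 36.00, 37.6 and 31.7 FPKM in siMENA and 34.3, 42.9 and 37.4 FPKM in control. KIF23, the midzone motor MKLP1, overlapped with control and did not pass, at -0.36 (SE 0.12, adjusted p 0.0562, and 0.00805 with the replicate block). It passed in 1 of 9 single-library omissions. The calls under siMENA11a were lost for KIF11 without any one of siMENA11a replicates 1 and 3 and control replicates 2 and 3 (adjusted p 0.0054 to 0.101 over all settings) and for KIF14 without any one of siMENA11a replicates 1 and 3 and control replicates 2 and 3 (adjusted p 0.00289 to 0.084 over all settings). The call of KIF20A against siMENA was lost without any one of siMENA11a replicate 1 and siMENA replicate 2 (adjusted p 0.00317 to 0.0583 over all settings).

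Of 7 genes of spindle assembly and spindle poles 4 fell under siMENA11a and 1, NEK2, under siMENA. NEK2 is a centrosome kinase that frees the spindle poles from each other. NEK2 measured 19.05, 22.97 and 18.1 FPKM in the siMENA11a libraries, 20.1, 22.4 and 17.99 FPKM in siMENA and 25.9, 31.9 and 27.7 FPKM in control. Both siRNA groups lay below control in every library and overlapped with each other. NEK2 fell by 0.49 (SE 0.11, adjusted p 0.0127) under siMENA11a and fell by 0.48 (SE 0.11, adjusted p 0.0141) under siMENA, and siMENA11a against siMENA gave -0.01 (SE 0.11, adjusted p 0.953). NUSAP1 measured 52.01, 62.2 and 52.7 FPKM in the siMENA11a libraries, 80.9, 86.4 and 73.6 FPKM in siMENA and 70.4, 89.4 and 76.6 FPKM in control. This microtubule-binding protein fell by 0.49 (SE 0.10, adjusted p 0.00862) against control and fell by 0.52 (SE 0.10, adjusted p 0.00301) against siMENA, without overlap, while siMENA against control gave 0.03 (SE 0.10, adjusted p 0.863). DLGAP5 measured 17.7, 21.9 and 17.8 FPKM in the siMENA11a libraries, 26.6, 28.1 and 23.7 FPKM in siMENA and 23.3, 30.8 and 27.98 FPKM in control. DLGAP5, which stabilises spindle fibres, fell by 0.49 (SE 0.11, adjusted p 0.0144) against control and fell by 0.43 (SE 0.11, adjusted p 0.0135) against siMENA.

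AURKA, the aurora kinase of spindle poles, was the most abundant of this group. AURKA measured 55.4, 74.2 and 56.9 FPKM in the siMENA11a libraries, 65.3, 76.1 and 59.9 FPKM in siMENA and 75.5, 101 and 84.9 FPKM in control. It fell by 0.48 (SE 0.14, adjusted p 0.0337) under siMENA11a, and siMENA lay between, at -0.37 (SE 0.14, adjusted p 0.0873, and 0.00444 with the replicate block). TPX2, which activates AURKA, ASPM, a spindle pole protein, and HMMR, a spindle protein that also binds hyaluronan, overlapped with control under siMENA11a, at -0.48, -0.38 and -0.16 with adjusted p of 0.0761, 0.0613 and 0.268. With the replicate block the adjusted p were 0.0193, 0.00415 and 0.095, and they passed in 1, 2 and 0 of 9 single-library omissions. The calls against control were lost for AURKA without any one of siMENA11a replicates 1 and 3 and control replicates 2 and 3 (adjusted p 0.00124 to 0.11 over all settings) and for DLGAP5 without any one of siMENA11a replicate 1 and control replicate 3 (adjusted p 0.00288 to 0.0532 over all settings). The call of DLGAP5 against siMENA was lost without any one of siMENA11a replicate 1 and siMENA replicate 2 (adjusted p 0.00249 to 0.0508 over all settings).

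**Figure D5:**
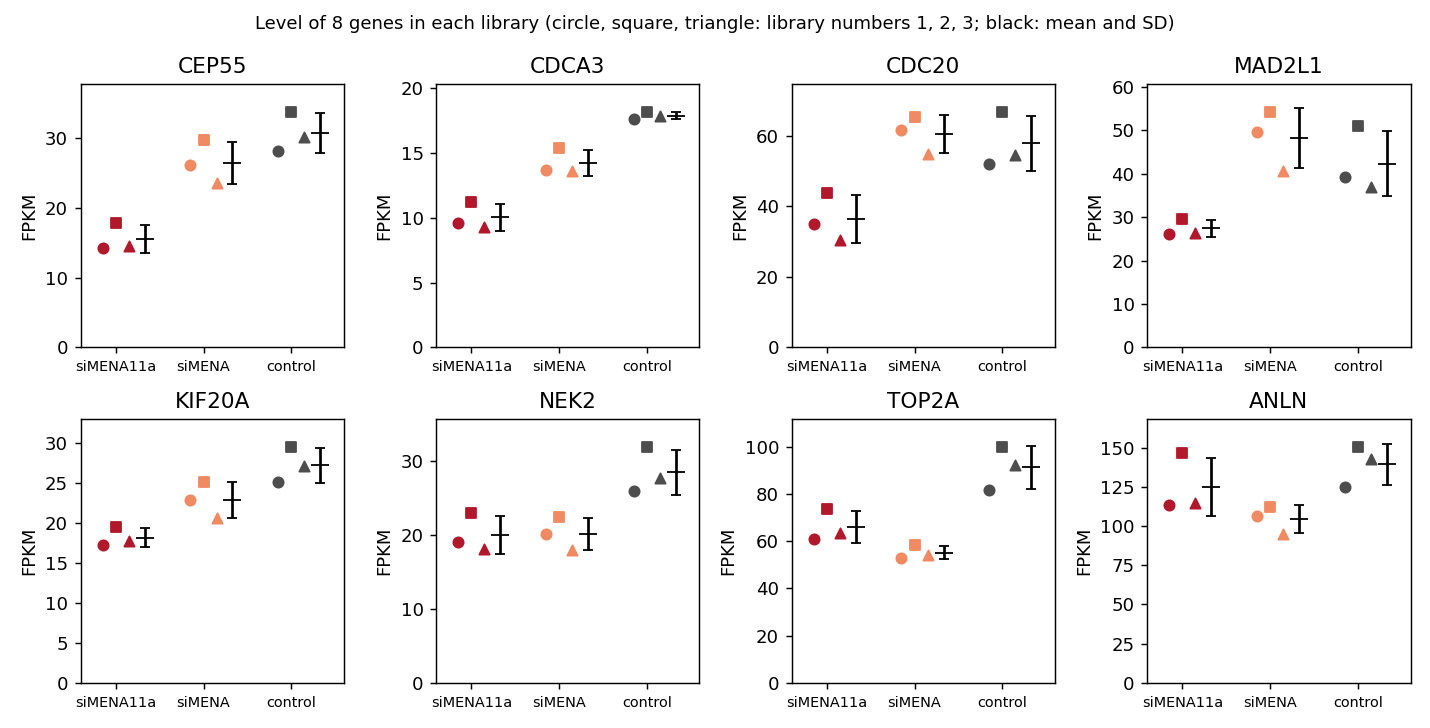
FPKM (vertical axes, from 0) of 8 genes in each library by siRNA group, with symbols for the library numbers and black bars for the mean and SD (n = 3). CEP55, CDCA3, CDC20 and MAD2L1 are lowest in siMENA11a, NEK2 is low in both siRNA groups, and TOP2A and ANLN are lowest in siMENA.

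The genes of the APC/C and anaphase held some of the clearest falls. CDCA3, a factor that helps degrade the CDK1 inhibitor WEE1, had the smallest adjusted p of the 42 genes in siMENA11a against control. CDCA3 measured 9.58, 11.2 and 9.30 FPKM in the siMENA11a libraries, 13.7, 15.3 and 13.6 FPKM in siMENA and 17.6, 18.2 and 17.9 FPKM in control. The 3 groups did not overlap, with siMENA11a lowest and siMENA between. CDCA3 fell by 0.78 (SE 0.08, adjusted p 0.000197) under siMENA11a against control, fell by 0.31 (SE 0.08, adjusted p 0.0182) under siMENA against control and fell by 0.47 (SE 0.08, adjusted p 0.00116) in siMENA11a against siMENA. CDC20 measured 34.9, 43.7 and 30.6 FPKM in the siMENA11a libraries, 61.7, 65.2 and 54.7 FPKM in siMENA and 52.1, 66.7 and 54.6 FPKM in control. CDC20, the activator of the APC/C in mitosis, fell by 0.66 (SE 0.13, adjusted p 0.00764) under siMENA11a against control and fell by 0.73 (SE 0.13, adjusted p 0.00209) against siMENA, and siMENA against control gave 0.07 (SE 0.13, adjusted p 0.744). UBE2C measured 94.8, 109.9 and 87.5 FPKM in the siMENA11a libraries, 145, 156 and 119 FPKM in siMENA and 126, 151 and 131 FPKM in control. This ubiquitin-conjugating enzyme of the APC/C fell by 0.48 (SE 0.12, adjusted p 0.0188) against control and fell by 0.52 (SE 0.12, adjusted p 0.00651) against siMENA.

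PTTG1, the securin that keeps separase inactive until anaphase, fell under siMENA but did not pass under siMENA11a. PTTG1 measured 73.8, 90.2 and 76.2 FPKM in the siMENA11a libraries, 75.8, 86.8 and 71.8 FPKM in siMENA and 93.6, 110.4 and 94.9 FPKM in control. Every library of both siRNA groups lay below every control library. PTTG1 fell by 0.35 (SE 0.10, adjusted p 0.0359) under siMENA. For siMENA11a against control its fold change was -0.31 (SE 0.10, adjusted p 0.0511, and 0.0025 with the replicate block), which passed in 2 of 9 single-library omissions. For siMENA11a against siMENA it was 0.03 (SE 0.10, adjusted p 0.818). PTTG1 has close copies elsewhere in the genome, and no source used here says how the authors' counting split reads between them. The call of UBE2C against control was lost without any one of siMENA11a replicates 1 and 3 and control replicate 2 (adjusted p 0.00172 to 0.0639 over all settings). Under siMENA, the calls were lost for PTTG1 without any one of siMENA replicates 1 and 3 and control replicates 1 to 3 (adjusted p 0.00182 to 0.11 over all settings) and for CDCA3 without any one of siMENA replicates 1 and 3 and control replicates 2 and 3 (adjusted p 0.00705 to 0.0713 over all settings).

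In cytokinesis, CEP55 had the largest fall of the 42 genes under siMENA11a. CEP55 sits at the midbody and recruits the machinery that cuts the last bridge between daughter cells. CEP55 measured 14.2, 17.8 and 14.4 FPKM in the siMENA11a libraries, 26.1, 29.6 and 23.6 FPKM in siMENA and 28.1, 33.7 and 30.1 FPKM in control. All siMENA11a libraries lay far below all others. CEP55 fell by 0.95 (SE 0.11, adjusted p 0.000486) against control and fell by 0.74 (SE 0.11, adjusted p 0.000624) against siMENA, and siMENA against control gave -0.21 (SE 0.11, adjusted p 0.199, and 0.0317 with the replicate block). PRC1 measured 30.5, 37.8 and 31.7 FPKM in the siMENA11a libraries, 40.6, 43.9 and 35.1 FPKM in siMENA and 42.3, 48.1 and 46.3 FPKM in control. PRC1, which bundles the microtubules of the midzone, fell by 0.44 (SE 0.10, adjusted p 0.0129) under siMENA11a against control and reached -0.25 (SE 0.10, adjusted p 0.0711) against siMENA. ANLN measured 114, 146 and 115 FPKM in the siMENA11a libraries, 106, 112 and 94.9 FPKM in siMENA and 125, 150.2 and 143 FPKM in control. ANLN, the scaffold anillin of the contractile ring, was lowest in siMENA, without overlap with either other group. It fell by 0.41 (SE 0.11, adjusted p 0.0274) under siMENA, whereas siMENA11a against control gave -0.16 (SE 0.11, adjusted p 0.335) with overlapping values. In siMENA11a against siMENA it reached 0.25 (SE 0.11, adjusted p 0.101, and 0.0278 with the replicate block). ECT2, an exchange factor needed for cleavage furrow formation, overlapped with control under siMENA11a, at -0.32 (SE 0.11, adjusted p 0.0814, and 0.00576 with the replicate block). It passed in 1 of 9 single-library omissions. The call of ANLN under siMENA was lost without any one of siMENA replicates 1 and 3 and control replicates 2 and 3 (adjusted p 0.00658 to 0.0886 over all settings).

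TOP2A, the topoisomerase that untangles replicated DNA, was the only gene of the 42 called higher in siMENA11a than in siMENA. TOP2A measured 60.7, 73.7 and 63.5 FPKM in the siMENA11a libraries, 53.02, 58.2 and 54.2 FPKM in siMENA and 81.6, 99.7 and 92.3 FPKM in control. The 3 groups did not overlap, with siMENA lowest and siMENA11a between it and control. TOP2A fell by 0.71 (SE 0.09, adjusted p 0.00079) under siMENA and fell by 0.46 (SE 0.09, adjusted p 0.00662) under siMENA11a against control, and siMENA11a against siMENA gave a log2 fold change of 0.25 (SE 0.09, adjusted p 0.0491). The last call was lost without any one of siMENA11a replicates 2 and 3, siMENA replicates 1 to 3 and control replicate 3 (adjusted p 0.0053 to 0.14 over all settings). MKI67, which encodes the proliferation marker Ki-67, did not pass in any of the 3 comparisons of the fit with group as the only term. Against siMENA it passed in 1 of 9 single-library omissions (adjusted p 0.0104 to 0.813 over all settings). For siMENA11a against control it passed in 0 of 9 (adjusted p 0.0477 to 0.962 over all settings). Without all 3 libraries numbered 2, MKI67 in siMENA11a was at -0.51 against siMENA and -0.39 against control. It measured 9.01, 17.3 and 10.9 FPKM in siMENA11a, 12.1, 14.5 and 17.3 FPKM in siMENA and 11.9, 15.4 and 14.7 FPKM in control, with -0.21 (SE 0.20, adjusted p 0.522) under siMENA11a. For MKI67, siMENA11a replicate 2 and siMENA replicate 3 were the highest libraries.

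The siMENA11a siRNAs match exon 11a, so the 3' UTRs of the 42 genes were searched for short words of that exon, since an siRNA can also bind other RNAs through a few bases. The 63 bases of the exon lie at chr1:225504991-225505053 on the minus strand of GRCh38 and hold 57 words of 7 bases. The words were ranked by the median fold change of the tested genes that carry them in the longest annotated 3' UTR (GENCODE 29) minus that of the genes that do not, in siMENA11a against control. CCAAGGA and CAAGGAA came first, with differences of -0.05 and -0.03, and are in capitals in the exon below. The ranking used these same libraries. Of the 42 genes 3 carry at least 1 of these words (7.14%, against 24.4% of 11357 genes searched), CEP55, MAD2L1 and MKI67. A site of each is shown with the words in capitals, which for MAD2L1 is 1 of 4. Of these 3 genes 2, CEP55 and MAD2L1, were called lower under siMENA11a, and the median of the 3 was -0.60. The other 39 genes carry neither word, and 23 of them were called lower under siMENA11a, with a median of -0.44. Since the siRNA sequences are not known, these words need not belong to any siRNA used. The shares were not adjusted for the length of the 3' UTR, which ran from 61 bases in NDC80 to 4510 in MAD2L1. Binding of the siRNAs through these or other words, and the part of any word in these values, was not tested.
ENAH exon 11a: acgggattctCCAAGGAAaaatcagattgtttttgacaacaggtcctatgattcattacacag
CEP55 site: agataattaaCCAAGGAtcttaactgtgtt
MAD2L1 site: ctatccctggCCAAGGAAgtatgcaaattg
MKI67 site: ggagggtgttCAAGGAAgagtggctcttag

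Many other genes of mitosis fell under siMENA11a. Of 107 further genes in 6 lists 105 were tested, and 46 fell and 3 rose under siMENA11a, against 11.3% and 8.16% of all genes, with a median of -0.29. Under siMENA 8 fell and 10 rose, near the 8.24% and 10.3% of all genes, with a median of -0.02. In siMENA11a against siMENA 54 fell and 8 rose, against 22.2% and 14.4% of all genes. The count for siMENA11a against control was 26 without siMENA11a replicate 1, 29 without siMENA11a replicate 3, 23 without control replicate 2 and 24 without control replicate 3. Over all genes the calls in either direction were then 1765, 2067, 1748 and 1493. Without the 3 libraries numbered 2, 42 of the further genes fell under siMENA11a. The count rose to 62 without siMENA11a replicate 2 and to 62 with the replicate block. Over all genes the calls in either direction were then 2390 and 3431. The number of rises under siMENA was 4 without siMENA replicate 1, 3 without siMENA replicate 2 or control replicate 1, and 2 without control replicate 3. The falls were 5 without control replicate 3. With the replicate block 11 fell and 14 rose under siMENA. For siMENA11a against siMENA the falls were 35 without siMENA replicate 2, 67 without siMENA11a replicate 2 and 70 with the replicate block.

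Of the 8 condensin genes, which compact chromosomes, 6 fell under siMENA11a, led by NCAPH from the non-SMC part of condensin I with 6.01 ± 1.25 FPKM in siMENA11a, 8.76 ± 0.618 in siMENA and 8.76 ± 0.772 in control, at a fold change of -0.49 (SE 0.12, adjusted p 0.0176). SMC2, the core ATPase, and NCAPG fell by 0.48 and 0.47. Of 11 genes of cohesin and its release 5 fell. RAD21, the cohesin subunit that separase cuts, held 98.9 ± 5.36 FPKM in siMENA11a, 132 ± 12.2 in siMENA and 163 ± 10.5 in control. It fell by 0.71 (SE 0.08, adjusted p 0.000418) under siMENA11a and fell by 0.30 (SE 0.08, adjusted p 0.0232) under siMENA, where the call was lost without any one of siMENA replicates 1 and 2 and control replicates 2 and 3 (adjusted p 0.0114 to 0.122 over all settings). ESPL1, the separase itself, and SMC1A fell by 0.51 and 0.30 under siMENA11a. APC/C genes went both ways, with 4 of 16 tested lower and 3 higher. The falls include UBE2S and CDC27 at -0.54 and -0.47, and FBXO5, the APC/C inhibitor EMI1, at -0.42. The calls under siMENA11a were lost for NCAPH without any one of siMENA11a replicates 1 and 3 and control replicates 2 and 3 (adjusted p 0.00276 to 0.061 over all settings), for NCAPG without any one of siMENA11a replicates 1 and 3, siMENA replicate 1 and control replicates 2 and 3 (adjusted p 0.00571 to 0.119 over all settings), for UBE2S without any one of siMENA11a replicates 1 and 3, siMENA replicates 1 to 3 and control replicates 2 and 3 (adjusted p 0.00291 to 0.137 over all settings) and for FBXO5 without any one of control replicates 2 and 3 (adjusted p 0.00719 to 0.0583 over all settings).

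Among 30 further kinetochore and checkpoint genes 14 fell under siMENA11a and none was called higher by limma (0 at an unadjusted p under 0.05). SPC25, a subunit of the NDC80 complex, fell by 0.60 and CENPI, a protein of the inner kinetochore, by 0.54. TRIP13, the ATPase that recycles MAD2, held 22.1 ± 2.12 FPKM in siMENA11a, 42.8 ± 3.46 in siMENA and 33.8 ± 2.82 in control. TRIP13 fell by 0.59 (SE 0.09, adjusted p 0.0018) under siMENA11a, while under siMENA it rose by 0.33 (SE 0.09, adjusted p 0.0258), a call lost without any one of siMENA replicates 1 and 2 and control replicates 1 and 3 (adjusted p 0.00629 to 0.0909 over all settings). Of 28 further tested spindle and cytokinesis genes 13 fell, led by FAM64A at -0.70, RACGAP1, the partner of KIF23 at the midzone, at -0.68 and ARHGAP11A at -0.60. ARHGAP11A also fell by 0.77 (SE 0.12, adjusted p 0.00311) under siMENA. Of 12 further regulators of mitotic entry 4 fell, among them GMNN, the inhibitor of DNA relicensing, by 0.49, PKMYT1, the kinase that inhibits CDK1, by 0.46 and CKS2 by 0.40. The calls under siMENA11a were lost for SPC25 without any one of siMENA11a replicates 1 and 3 and control replicates 2 and 3 (adjusted p 0.015 to 0.108 over all settings) and for CKS2 without any one of siMENA11a replicates 1 and 3 and control replicates 2 and 3 (adjusted p 0.00191 to 0.109 over all settings).

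Further lists held regulators of the mitotic program, targets of p53 and genes of G1. For siMENA11a against control, 11.3% of all genes were called lower and 8.16% higher. Of 15 genes of MuvB, DREAM and NF-Y none was called lower by limma under siMENA11a (2 at an unadjusted p under 0.05), and 1, E2F4, a DREAM subunit, was higher by 0.24 (SE 0.05, adjusted p 0.012). It was higher under siMENA as well, by 0.24 (SE 0.05, adjusted p 0.0119), a call lost without siMENA replicate 1 (adjusted p 0.0102 to 0.0809 over all settings). MYBL2, which encodes B-MYB and is itself a cell cycle gene, held 28.2, 42.1 and 18.6 FPKM in siMENA11a, 34.00, 38.6 and 34.6 FPKM in siMENA and 37.4, 56.6 and 51.9 FPKM in control. The groups overlapped, and the fold change of MYBL2 under siMENA11a was -0.75 (SE 0.24, adjusted p 0.0555). Targets of p53 went both ways under siMENA11a, with 1 of 13 lower and 3 higher. CDKN1A, the CDK inhibitor p21, was lower, at -0.22 (SE 0.07, adjusted p 0.0475), a call kept in 1 of 9 single-library omissions (without control replicate 1) and lost in the other 8 (adjusted p 0.00872 to 0.217 over all settings), and ZMAT3 higher, at 0.54 (SE 0.10, adjusted p 0.00459), with TP53INP1 and RRM2B at 0.28 and 0.24. Under siMENA ZMAT3 and TP53INP1 were lower, at -0.63 and -0.43 (adjusted p 0.00232 and 0.00713). CDKN1A and MYBL2 were picked after their values were seen. Of 12 tested G1 cyclins, kinases and inhibitors 3 fell under siMENA11a, CDK4, CCNE2 and CDK2, by 0.37, 0.34 and 0.25. The calls under siMENA11a were lost for TP53INP1 without any one of siMENA11a replicates 1 and 3, siMENA replicate 2 and control replicates 1 to 3 (adjusted p 0.0143 to 0.113 over all settings) and for CDK2 without any one of siMENA11a replicates 1 to 3, siMENA replicate 2 and control replicates 1 to 3 (adjusted p 0.0134 to 0.153 over all settings).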

How the data were processed

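RNA of H1650 cells was sequenced with a stranded, ribosome-depleted total RNA kit, per the labels' protocols. The authors deposited 1 table of FPKM values for 16630 genes. The submitters' processing notes name build hg19, and no source used here gives the aligner, the annotation or the depth. Many cells of the table are whole numbers that had lost a decimal point, and the authors' deposited FPKM values of this kind (7.91% of cells) were divided by 1000, which changed 48 of 378 values in 27 of the 42 genes. A whole number was divided if it was at least 100 times the median of the decimal values of its gene, or if its gene had no decimal value. No test was made for 1286 genes with missing values.

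Genes averaging 0.5 FPKM or more were tested as log2(FPKM + 1) with limma 3.58.1 in R 4.3.3, in 1 fit of all 9 libraries with group as the only term, a mean-variance trend and Benjamini-Hochberg adjustment over 13273 genes. A gene was called at an adjusted p under 0.05, and adjusted p-values come from this fit unless another setting is named. Fold changes understate the change of low genes. Of the genes of each role, those given for every library are the 3 largest passing changes under siMENA11a, the most abundant gene and each gene passing in another comparison. Of each other list up to 3 passing genes are named. The 250-base promoter stretches, CDKN1A and MYBL2 were added after their values were seen. The members, lists and tests were chosen with earlier results of these data known.

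Same-numbered libraries deviated together in siMENA and control (correlations 0.124, 0.378 and 0.196 over genes), so the numbers were taken to pair these libraries on the data alone. The fit with group as the only term leaves this pairing out. In siMENA against control it called 5 of the 42 genes lower, against 15 with the replicate block. The labels name replicates but no shared culture or day, so p-values measure the spread between these samples, which may be technical. Alternatives were other filters, pseudocounts and scalings, no repair, no trend, a replicate block and the omission of single libraries.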

Additional observations from a re-analysis of the deposited data

How the results depend on the processing

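The repair of lost decimal points mattered most. Without it 2 of the 42 genes were lower in siMENA11a against control, 0 in siMENA against control and 4 in siMENA11a against siMENA, where none was higher (0), and the counts over all genes were 556, 543 and 1703, against 2583, 2463 and 4857 with it. Unrepaired values reversed the sign of BUB1B (6.01), CENPF (2.77), CDK1 (6.33), NUSAP1 (2.82), NEK2 (2.81), CDCA8 (2.65) and NCAPG (2.79) in siMENA11a against control, of NEK2 (6.12) in siMENA against control, and of BUB1B (6.03), CENPF (2.97), NUSAP1 (2.79), CDCA8 (2.78) and NCAPG (2.84) in siMENA11a against siMENA, all on the log2 scale and each from cells about 1000 times too large. With every gene that held a repaired value left out, 15 of the 42 genes remained, of which 9, 0 and 8 were lower in the same 3 comparisons and 0 higher in siMENA11a against siMENA. The counts over all genes were then 1362, 1293 and 2716.

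Median-ratio scaling and quantile normalization gave 9 and 8 genes lower in siMENA against control, against 5. The counts over all genes in either direction were 2395 and 2444, against 2463. With the replicate block 37, 15 and 28 genes were lower in the same 3 comparisons, and 2 were higher in siMENA11a against siMENA. The counts over all genes in either direction rose as well, to 3431, 3149 and 5648, against 2583, 2463 and 4857 without the block. The siMENA11a library numbered 2 deviated together with those numbered 2 of control and siMENA, at correlations of 0.425 and 0.309. Numbers 1 and 3 of siMENA11a gave 0.206 and -0.0302 with control and 0.0863 and 0.0203 with siMENA. Replicate 3 of siMENA11a correlated more with replicate 1 of control (0.321) and of siMENA (0.205), so its number did not pair it. Without the filter on low values and without the mean-variance trend 0 genes were higher in siMENA11a against siMENA. Leaving out 1 library at a time gave 15 to 39 lower genes in siMENA11a against control, 2 to 9 in siMENA against control and 11 to 28 in siMENA11a against siMENA, with 0 to 1 higher. The count over all genes in siMENA against control was 1346 without siMENA replicate 1, 1572 without siMENA replicate 2, 1555 without control replicate 1 and 1446 without control replicate 3, and that in siMENA11a against control was 1493 without control replicate 3. Without all 3 libraries numbered 2, a choice made after seeing the data, 28 genes were lower and 0 higher in siMENA11a against siMENA, and the counts over all genes against control were 1641 and 1614. With a block as well these were 1117 and 1042, and 0 genes were higher in siMENA11a against siMENA. The cause of these shifts was not tested. With 3 libraries a group and no counts, depth is unknown and its effect on single genes cannot be given.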
